A study of Mus musculus with 76 samples.

Results

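The genes described here are 10 genes of the neuronal cytoskeleton: Tuba1a, Tubb2a, Tubb2b, Tubb3, Dcx, Map1b, Map2, Mapt, Stmn2 and Nefl. They were taken as a list of gene names, with no threshold on a value, and each was found under 1 gene ID among the 14823 genes of the deposited table. All 10 were among the 14339 genes that passed the filter on low counts. The tissue was dorsal forebrain, which forms the cerebral cortex, taken at embryonic day 16 from offspring of C57BL/6J mice. Before mating, fathers, mothers, both or neither had received α-cypermethrin, a pyrethroid insecticide, and the rest vehicle, over 28 days that began with 7 days of treatment and went on with 3 rounds of 2 days off and 5 days on. The labels name the dose 0.3 or 10 without a unit, and give neither litter nor parental age, so that p-values measure the spread between libraries. The 76 libraries were from offspring of exposed fathers (Paternal_0.3Cyp, n = 12), exposed mothers (Maternal_0.3Cyp, n = 12) or both (Both_0.3Cyp, n = 12), the same at the higher dose (Paternal_10Cyp, n = 10, Maternal_10Cyp, n = 8, and Both_10Cyp, n = 10), and of pairs given vehicle only (Ctrl, n = 12). The embryos themselves were not dosed other than through their parents, and each group holds libraries of a labelled batch 1 and batch 2.

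Library totals ran from 17.7 to 41.4 M estimated counts with a median of 19.2 M. In Both_10Cyp they ran from 21.2 to 34.0 M with a median of 26.0 M, the highest median of the groups. In Ctrl they ran from 17.9 to 19.9 M, so that depth and exposure cannot be told apart between Both_10Cyp and Ctrl. Every library held 238029 to 570173 counts of Tuba1a and 883 to 5337 of Nefl, the most and the least abundant of the 10, so that counting error was small beside the spread between libraries. Levels below are normalised CPM, on library totals scaled by TMM factors. The dorsal forebrain markers Neurod6 (222 to 714 CPM), Tbr1 (194 to 524 CPM) and Emx1 (24.3 to 116 CPM) were present in every library, and Avil, a marker of peripheral sensory neurons, lay between 0 and 1.23 CPM. In 4 libraries embryonic globins stood more than 3 median absolute deviations above the median (Paternal_0.3Cyp replicates 3 and 4, Both_10Cyp replicates 7 and 8), and in 4 diencephalon markers did (Paternal_0.3Cyp replicates 6 and 9, Paternal_10Cyp replicate 1, Ctrl replicate 3). These are tissue measurements: fewer cells of a type and less RNA per cell cannot be told apart in them.

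Microtubules are hollow polymers of α- and β-tubulin dimers, and in newborn cortical neurons they carry the movement of the nucleus during migration and the outgrowth of axons and dendrites. Tuba1a encodes the main α-tubulin of newborn neurons, and Tubb2a, Tubb2b and Tubb3 encode β-tubulins. Doublecortin (Dcx) binds microtubules in migrating neurons, and Map1b, Map2 and tau (Mapt) bind along them in growing axons and dendrites. Stathmin 2 (Stmn2) binds free tubulin dimers and is present in growth cones, while Nefl encodes the light chain of neurofilaments, which are intermediate filaments and not microtubules. In humans, mutations of TUBA1A, TUBB2B, TUBB3 and DCX cause malformations of the cortex.

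Tubulin genes are so alike that reads can fit several of them, which bears on every value of Tubb2a, Tubb2b and Tuba1a. Tubb2a (chr13:34074274-34078007, minus strand) and Tubb2b (chr13:34126748-34130466, minus strand, mm10) lie beside each other, and their coding sequences were 96.5% identical, with 47 of 1335 bases differing and a longest identical run of 551 bases. Tuba1a (chr15:98949837-98953703, minus strand) was 98.3% identical to Tuba1b, with 23 of 1353 bases differing and a longest identical run of 281 bases. Tubb3 (chr8:123411424-123422015, plus strand) was less alike, 84.1% identical to Tubb2a and 84.3% to Tubb2b. For the β-tubulins, the last 60 coding bases, which encode the acidic tail that protrudes from the microtubule and is modified by enzymes, show this. Each line runs 5′ to 3′ in GENCODE M21 transcripts, and capitals mark the bases at which Tubb2a and Tubb2b differ from each other.
Tubb2a: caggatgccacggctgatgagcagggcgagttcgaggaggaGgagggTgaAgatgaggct
Tubb2b: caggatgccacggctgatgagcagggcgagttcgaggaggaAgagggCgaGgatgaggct
Tubb3: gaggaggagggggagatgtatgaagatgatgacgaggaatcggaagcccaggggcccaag
In this window Tubb2a and Tubb2b differed at 3 bases, whereas the end of Tubb3 is its own. How the reads shared by the near-identical genes were divided rests on the authors' estimate, and the pairs were therefore also fitted as sums.

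In Ctrl, the level per kilobase of merged exons followed the order Tuba1a (8049 CPM per kb), Tubb2b (2829 CPM per kb), Tubb3 (1632 CPM per kb), Tubb2a (787 CPM per kb), Mapt (269.7 CPM per kb), Stmn2 (194 CPM per kb), Map1b (127 CPM per kb), Dcx (122 CPM per kb), Map2 (78.0 CPM per kb) and Nefl (33.1 CPM per kb). The 3 abundant tubulins stood far above the rest, and their Ctrl ranges did not overlap with one another or with that of Tubb2a. Below them, the Ctrl ranges of Mapt (204 to 312 CPM per kb) and Stmn2 (158 to 236) overlapped, as did those of Stmn2 and Map1b (74.2 to 176.5) and of Map1b and Dcx (97.9 to 136), so these neighbours were not apart beyond their spread. Map2 (66.5 to 92.7 CPM per kb) lay below every Ctrl value of Dcx and above every one of Nefl (21.2 to 59.0). The order of the lower members depends on the length used, since with the length of the main transcript Mapt came to 903 CPM per kb, above Tubb2a. That Mapt transcript is 2250 bases long, of which 2247 are coding, against 7531 bases of merged exons. Together the 10 genes held 3.06% to 3.19% of all normalised counts on average in the 6 exposed groups, against 3.34% ± 0.17 (SD, n = 12) in Ctrl.

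In the offspring of exposed parents, Mapt, Map2, Map1b, Tubb2a and Nefl, and in places Dcx, were lower than in Ctrl, while no difference of Tuba1a, Tubb2b, Tubb3 or Stmn2 passed the test. A gene was called at an adjusted p under 0.05 in edgeR's quasi-likelihood test, with batch and sex as terms and Benjamini-Hochberg adjustment over the 14339 genes. Every called member was lower in the exposed group. In Paternal_0.3Cyp 3 members were called (Dcx, Map2 and Mapt), where 12.2% of all genes were called lower. In Maternal_0.3Cyp 5 were called (Tubb2a, Map1b, Map2, Mapt and Nefl), beside 12.8% of all genes called lower. In Both_0.3Cyp those same 5 genes were called, beside 11.8% of all genes called lower. At the higher dose, 4 were called in Paternal_10Cyp (Tubb2a, Map1b, Map2 and Mapt), beside 10.8% of all genes called lower. Maternal_10Cyp had 6 called members (Tubb2a, Dcx, Map1b, Map2, Mapt and Nefl), beside 20.4% of all genes called lower. In Both_10Cyp Mapt alone was called, beside 1.58% of all genes called lower. There 6 members had an unadjusted p under 0.05, as did 3949 of the 14339 genes. A joint test of any difference among the 6 exposed groups from Ctrl called 3 members (Mapt, Map1b and Map2), beside 21.7% of all genes. The 6 comparisons share the 12 Ctrl libraries, so their likeness is not independent evidence. With each library left out in turn the counts ran from 2 to 6 in Paternal_0.3Cyp, 2 to 5 in Maternal_0.3Cyp and in Both_0.3Cyp, 0 to 4 in Paternal_10Cyp, 5 to 6 in Maternal_10Cyp and 0 to 2 in Both_10Cyp.

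The members' median log2 fold change was -0.16 in Paternal_0.3Cyp, -0.17 in Maternal_0.3Cyp, -0.19 in Both_0.3Cyp, -0.16 in Paternal_10Cyp, -0.25 in Maternal_10Cyp and -0.14 in Both_10Cyp. Over all genes tested the medians lay between -0.013 and 0.011. The plot of differences from Ctrl shows the called members left of zero in every panel and the 3 abundant tubulins between -0.09 and 0.01.

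**Figure D1:**
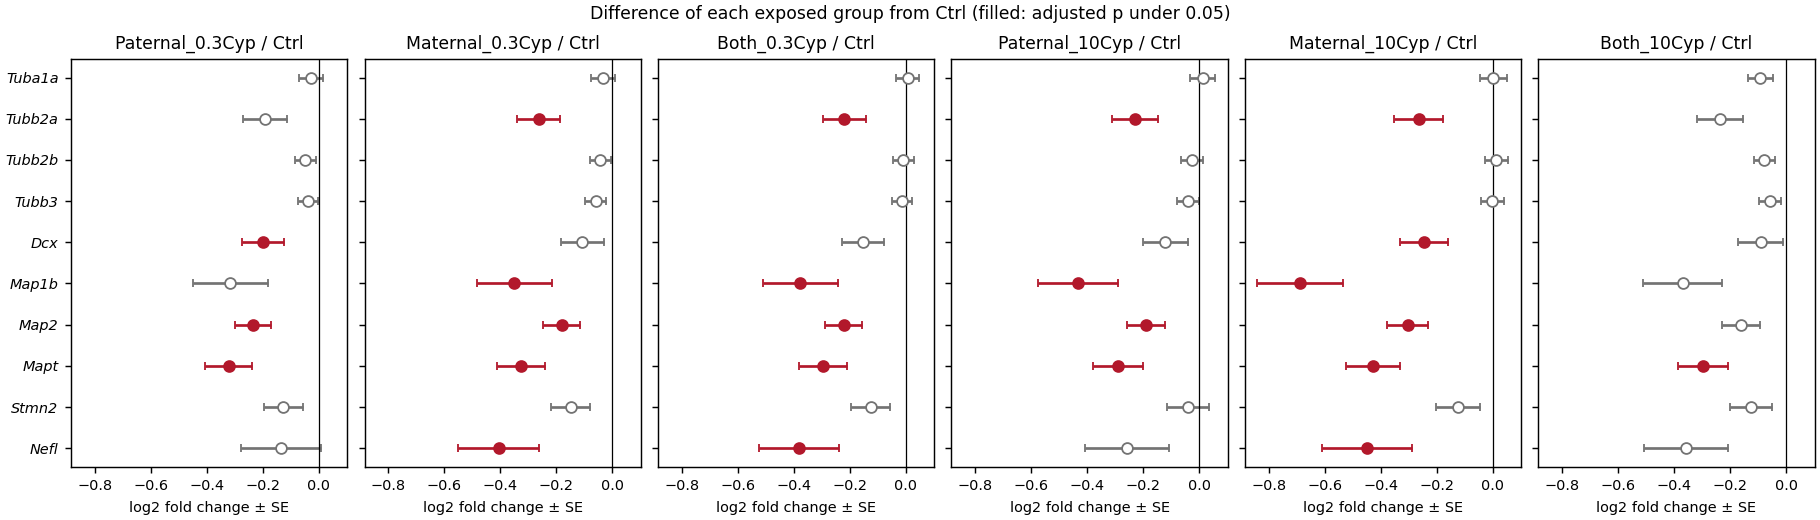
Log2 fold change of each member (rows) in each exposed group against Ctrl (panels), with bars of ± 1 standard error; filled points have an adjusted p under 0.05. Mapt is filled in all 6 panels, and Tuba1a, Tubb2b, Tubb3 and Stmn2 in none; the lowest value is -0.69 for Map1b in Maternal_10Cyp.

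Among the proteins that bind along the microtubule, Mapt (chr11:104231390-104332090, plus strand), which encodes tau, was called in all 6 groups. Mapt ran from 835 to 2044 CPM with a median of 1699 in Paternal_0.3Cyp, from 1406 to 1952 with a median of 1582 in Maternal_0.3Cyp, and from 1427 to 1902.5 with a median of 1632 in Both_0.3Cyp. At the higher dose it ran from 1422 to 1789 CPM with a median of 1622 in Paternal_10Cyp, from 1404 to 1621 with a median of 1488 in Maternal_10Cyp, and from 1062 to 2017 with a median of 1759 in Both_10Cyp, against 1535 to 2349 CPM with a median of 2023 in Ctrl. Of the 64 exposed libraries, 63 lay below the Ctrl mean and 17 below the lowest Ctrl library, so the groups were shifted but overlapped. Its log2 fold change was -0.32 ± 0.08 in Paternal_0.3Cyp (adjusted p = 0.00582), -0.33 ± 0.09 in Maternal_0.3Cyp (0.00696) and -0.29 ± 0.08 in Both_0.3Cyp (0.0129), each with its standard error. It was -0.29 ± 0.09 in Paternal_10Cyp (adjusted p = 0.0188), -0.43 ± 0.10 in Maternal_10Cyp (0.000516) and -0.30 ± 0.09 in Both_10Cyp (0.0442). The Maternal_10Cyp value corresponds to 0.744 times the Ctrl level. With each library left out in turn Mapt kept its call in 24 of 24 fits in each of the 0.3 groups, 21 of 22 in Paternal_10Cyp, 20 of 20 in Maternal_10Cyp and 9 of 22 in Both_10Cyp.

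Map2 (chr1:66175273-66442583, plus strand), the classical marker of dendrites, was called in 5 groups and had the most libraries under the Ctrl range. Its level was 658 to 1338 CPM with a median of 1139 in Paternal_0.3Cyp, 989 to 1362 with a median of 1129 in Maternal_0.3Cyp and 940.2 to 1307 with a median of 1085 in Both_0.3Cyp. It was 981 to 1335 CPM with a median of 1127 in Paternal_10Cyp, 882 to 1201 with a median of 1034 in Maternal_10Cyp and 1024 to 1407 with a median of 1121 in Both_10Cyp, against 1095 to 1524 CPM with a median of 1281 in Ctrl. Of the 64 exposed libraries, 30 lay below the lowest Ctrl library and none above the highest, and in Maternal_10Cyp 6 of 8 lay below the Ctrl range. The log2 fold change was -0.24 ± 0.06 in Paternal_0.3Cyp (adjusted p = 0.00727), -0.18 ± 0.07 in Maternal_0.3Cyp (0.0355) and -0.22 ± 0.06 in Both_0.3Cyp (0.0137). At the higher dose it was -0.19 ± 0.07 in Paternal_10Cyp (0.0398), -0.30 ± 0.07 in Maternal_10Cyp (0.000964) and -0.16 ± 0.07 in Both_10Cyp (adjusted p = 0.115, not called). With each library left out in turn the call of Map2 held in 24 of 24 fits in Paternal_0.3Cyp and Both_0.3Cyp and 20 of 20 in Maternal_10Cyp, but in 14 of 24 in Maternal_0.3Cyp and 8 of 22 in Paternal_10Cyp.

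Map1b (chr13:99421446-99516540, minus strand), an early axonal member of the family, had the largest difference of the 10 genes, in Maternal_10Cyp. It ran from 931 to 2314 CPM with a median of 1485 in Paternal_0.3Cyp, from 1007 to 2214 with a median of 1742 in Maternal_0.3Cyp and from 1004 to 2372 with a median of 1455 in Both_0.3Cyp. In Paternal_10Cyp it ran from 1046 to 2281 CPM with a median of 1367, in Maternal_10Cyp from 929.9 to 1581 with a median of 1245 and in Both_10Cyp from 1126 to 2385 with a median of 1388, against 1176 to 2797 CPM with a median of 2051 in Ctrl. All 8 Maternal_10Cyp libraries lay below the Ctrl mean, 3 of them below the lowest Ctrl library. The log2 fold change was -0.69 ± 0.15 in Maternal_10Cyp (adjusted p = 0.000467), which is 0.621 times the Ctrl level. It was also called in Paternal_10Cyp (-0.43 ± 0.14, 0.0251), Both_0.3Cyp (-0.38 ± 0.13, 0.036) and Maternal_0.3Cyp (-0.35 ± 0.13, 0.0482). In Both_10Cyp (-0.37 ± 0.14, 0.0894) and Paternal_0.3Cyp (-0.32 ± 0.13, 0.0662) it was not called. The call held in 20 of 20 fits with a library left out in Maternal_10Cyp, 19 of 22 in Paternal_10Cyp, 14 of 24 in Both_0.3Cyp and 10 of 24 in Maternal_0.3Cyp.

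Dcx (chrX:143855842-143933311, minus strand) was called in Paternal_0.3Cyp and Maternal_10Cyp. It ran from 619 to 1644 CPM with a median of 1379 in Paternal_0.3Cyp and from 1165 to 1495 CPM with a median of 1274 in Maternal_10Cyp, against 1238 to 1722 CPM with a median of 1555 in Ctrl. The lowest Paternal_0.3Cyp library, replicate 8, was far below the rest, and it also had the lowest Map1b and Map2 and the highest Tuba1a (18643 CPM) of the group. The log2 fold change was -0.20 ± 0.08 in Paternal_0.3Cyp (adjusted p = 0.0399) and -0.25 ± 0.09 in Maternal_10Cyp (0.0167). The other 4 groups had medians of 1410.1 to 1469 CPM and log2 fold changes of -0.15 to -0.09, with adjusted p from 0.129 to 0.455. With each library left out in turn the Paternal_0.3Cyp call held in 12 of 24 fits. The call in Maternal_10Cyp was lost without replicate 5 of that group (adjusted p = 0.0544) or without replicate 6 (0.0507).

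Of the 4 tubulins, Tubb2a alone was called in edgeR. It ran from 686 to 1496 CPM with a median of 1061 in Paternal_0.3Cyp, from 926 to 1203 with a median of 1037 in Maternal_0.3Cyp and from 949.7 to 1194 with a median of 1102 in Both_0.3Cyp. At the higher dose it ran from 934 to 1334 CPM with a median of 1069 in Paternal_10Cyp, from 973 to 1123 with a median of 1049 in Maternal_10Cyp and from 724 to 1298 with a median of 1125 in Both_10Cyp, against 979 to 1673 CPM with a median of 1260.3 in Ctrl. Of the 64 exposed libraries 59 lay below the Ctrl mean, but only 9 below the lowest Ctrl library. The log2 fold change was -0.26 ± 0.08 in Maternal_0.3Cyp (adjusted p = 0.0136), -0.22 ± 0.08 in Both_0.3Cyp (0.0359), -0.23 ± 0.08 in Paternal_10Cyp (0.0385) and -0.26 ± 0.09 in Maternal_10Cyp (0.0126). It was -0.19 ± 0.08 in Paternal_0.3Cyp (0.0547) and -0.24 ± 0.08 in Both_10Cyp (0.0677), neither called. The call held in 24 of 24 fits with a library left out in Maternal_0.3Cyp, 20 of 20 in Maternal_10Cyp, 16 of 24 in Both_0.3Cyp and 9 of 22 in Paternal_10Cyp.

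For the neighbour Tubb2b, more abundant per kilobase than Tubb2a, no difference passed the test. Its medians were 6150.1, 6313 and 6363 CPM in Paternal_0.3Cyp, Maternal_0.3Cyp and Both_0.3Cyp, and 6258, 6407 and 6159 CPM in Paternal_10Cyp, Maternal_10Cyp and Both_10Cyp, against 6481 CPM in Ctrl. The log2 fold changes were -0.08 to 0.01, with adjusted p from 0.182 to 0.893. Tubb2a made up 13.9% ± 0.89 of the counts of the pair in Maternal_10Cyp (SD, n = 8) and 14.4% to 15.0% on average in the other exposed groups, against 16.3% ± 2.07 in Ctrl (SD, n = 12). That share was not tested. When both genes were summed before the fit, the sum was not called in any exposed group and differed by -0.03 in Maternal_10Cyp (adjusted p = 0.62). Because Tubb2a was only 16.3% of the pair in Ctrl, a change of Tubb2a alone moves the sum little, so the sum says little about Tubb2a. A lower level of Tubb2a and another division of shared reads within the pair cannot be told apart in these values.

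For Tuba1a the medians were 13698, 14153 and 14388 CPM in Paternal_0.3Cyp, Maternal_0.3Cyp and Both_0.3Cyp, and 14146, 14341 and 13724 CPM in Paternal_10Cyp, Maternal_10Cyp and Both_10Cyp, against 14605 CPM in Ctrl. Its log2 fold changes ran from -0.09 to 0.01 (adjusted p from 0.167 to 0.968), and the 95% intervals over the 6 groups reached from -0.18 to 0.10. Tubb3, the β-tubulin used to mark neurons, had medians of 2889 to 3035 CPM in the exposed groups, against 3077 CPM in Ctrl. Its log2 fold changes ran from -0.06 to -0.0014 (adjusted p from 0.229 to 0.982), with intervals reaching from -0.13 to 0.08. In Both_10Cyp the intervals of Tuba1a (-0.18 to -0.0043) and Tubb2b (-0.15 to -0.0013) lay below zero, although neither passed the adjusted test. Tuba1a held 91.3% to 91.9% of the counts of Tuba1a and Tuba1b on average in the exposed groups, against 92.4% ± 0.52 in Ctrl (SD, n = 12).

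Stmn2 (chr3:8509360-8561606, plus strand) had medians of 952 to 1034 CPM in the exposed groups, against 1099.7 CPM in Ctrl, and 52 of 64 exposed libraries lay below the Ctrl mean. Its log2 fold changes, -0.15 to -0.04, passed no test (adjusted p from 0.110 to 0.728). Nefl (chr14:68083863-68089095, plus strand) was the lowest member and, relative to its mean in Ctrl, the most variable. Its medians were 89.0, 85.3 and 88.5 CPM in Paternal_0.3Cyp, Maternal_0.3Cyp and Both_0.3Cyp, and 89.7, 80.7 and 91.6 CPM in Paternal_10Cyp, Maternal_10Cyp and Both_10Cyp, against 111 CPM in Ctrl. Maternal_10Cyp ranged from 69.0 to 100.2 CPM, against 71.5 to 199 CPM in Ctrl, and the highest library of all was replicate 9 of Paternal_0.3Cyp at 263 CPM. Nefl was called in Maternal_0.3Cyp (-0.41 ± 0.14, adjusted p = 0.0337), Both_0.3Cyp (-0.38 ± 0.14, 0.0462) and Maternal_10Cyp (-0.45 ± 0.16, 0.0218). Its call held in 18 of 24 fits with a library left out in Maternal_0.3Cyp, 6 of 24 in Both_0.3Cyp and 18 of 20 in Maternal_10Cyp. The highest Ctrl value belongs to replicate 3, one of the libraries high in diencephalon markers, and without it the Maternal_10Cyp value was -0.32 ± 0.15 (adjusted p = 0.0938); without Maternal_10Cyp replicate 1 it was -0.41 ± 0.17 (0.0504).

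**Figure D2:**
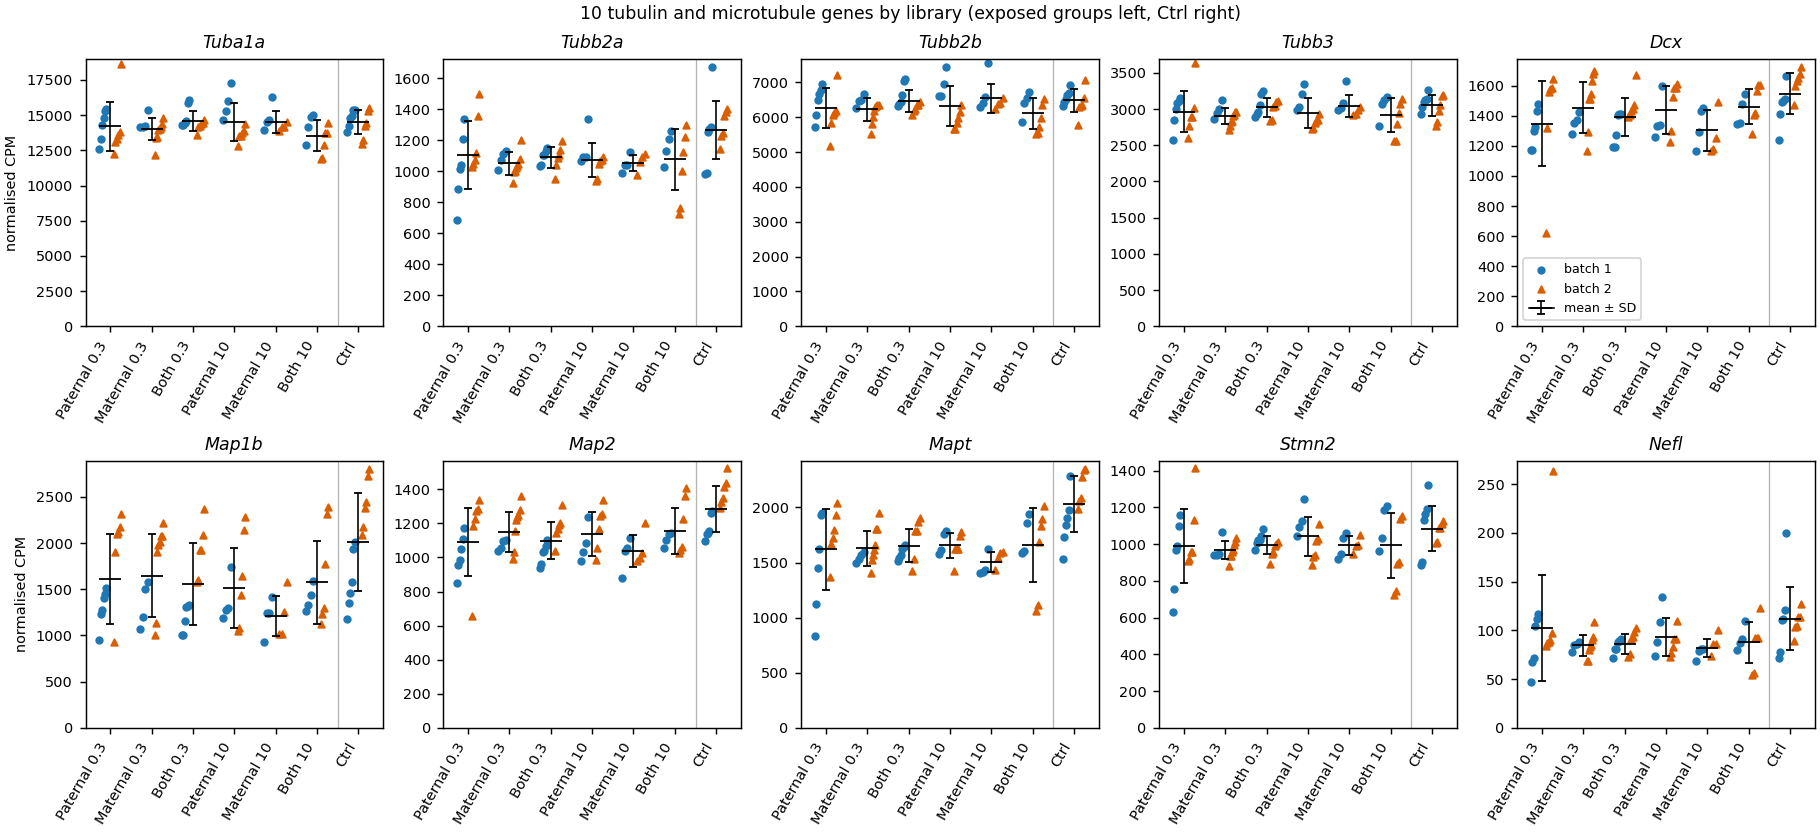
Level of each member in every library (normalised CPM, linear axes from 0) by group, exposed groups left of Ctrl; circles are batch 1, triangles batch 2, and bars give the mean ± SD. Map1b is higher in batch 2 than in batch 1 within Ctrl (means 2434 and 1585 CPM), and the 8 Maternal_10Cyp libraries all lie below the Ctrl mean of 2009 CPM.

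The 2 labelled batches differed for the members in both directions, so the differences were also read within each batch. Batch 2 was higher than batch 1 for Map1b (log2 difference 0.43, adjusted p = 3.43e-05) and Map2 (0.16, 0.00133), and lower for Tuba1a (-0.09, 0.00632), Tubb2b (-0.10, 0.000432) and Tubb3 (-0.06, 0.0214). In that contrast 25% of all genes were called. Within batch 1 no member was called in any exposed group by edgeR, and the share of all genes called lower there was 0% in Paternal_0.3Cyp, Maternal_0.3Cyp, Both_0.3Cyp and Both_10Cyp, 0.00697% in Paternal_10Cyp and 0.0418% in Maternal_10Cyp. The members with an unadjusted p under 0.05 within batch 1 numbered 5 in Paternal_0.3Cyp, 2 in Maternal_0.3Cyp, 4 in Both_0.3Cyp, 0 in Paternal_10Cyp, 3 in Maternal_10Cyp and 0 in Both_10Cyp. Of all 14339 genes, 2822, 1207, 1944, 1843, 3125 and 410 were under that cut in the same order. DESeq2 and limma were not run on that fit.

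Within batch 2 the called members were Map2 in Paternal_0.3Cyp (all genes called lower 5.03%), Tubb2a and Mapt in Maternal_0.3Cyp (9.55%) and Mapt in Both_0.3Cyp (4.39%). At the higher dose they were Tubb2a, Map1b and Mapt in Paternal_10Cyp (8.66%), Dcx, Map1b, Map2 and Mapt in Maternal_10Cyp (15.2%), and Tubb2a, Map1b and Mapt in Both_10Cyp (7.52%). For Map1b in Maternal_10Cyp the log2 fold change was -1.01 ± 0.21 within batch 2 (adjusted p = 0.000795) and -0.39 ± 0.21 within batch 1 (0.255). Mapt in the same group was -0.49 ± 0.14 within batch 2 (0.005) and -0.36 ± 0.13 within batch 1 (0.153). A joint test over the 6 groups of whether the differences from Ctrl changed with the batch called 0 members and 0% of all genes in edgeR. It had 0 members at an unadjusted p under 0.05, and DESeq2 and limma called 0 members. Group by group no member was called, but 1 had an unadjusted p under 0.05 in Maternal_10Cyp and 1 in Paternal_10Cyp. Of all 14339 genes, 827 and 1256 were under that cut there. The difference was lower in batch 2 than in batch 1 for all 10 members in Paternal_10Cyp and Both_10Cyp. The same held for 8 in Maternal_10Cyp, 8 in Maternal_0.3Cyp, 6 in Both_0.3Cyp and 4 in Paternal_0.3Cyp.

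**Figure D3:**
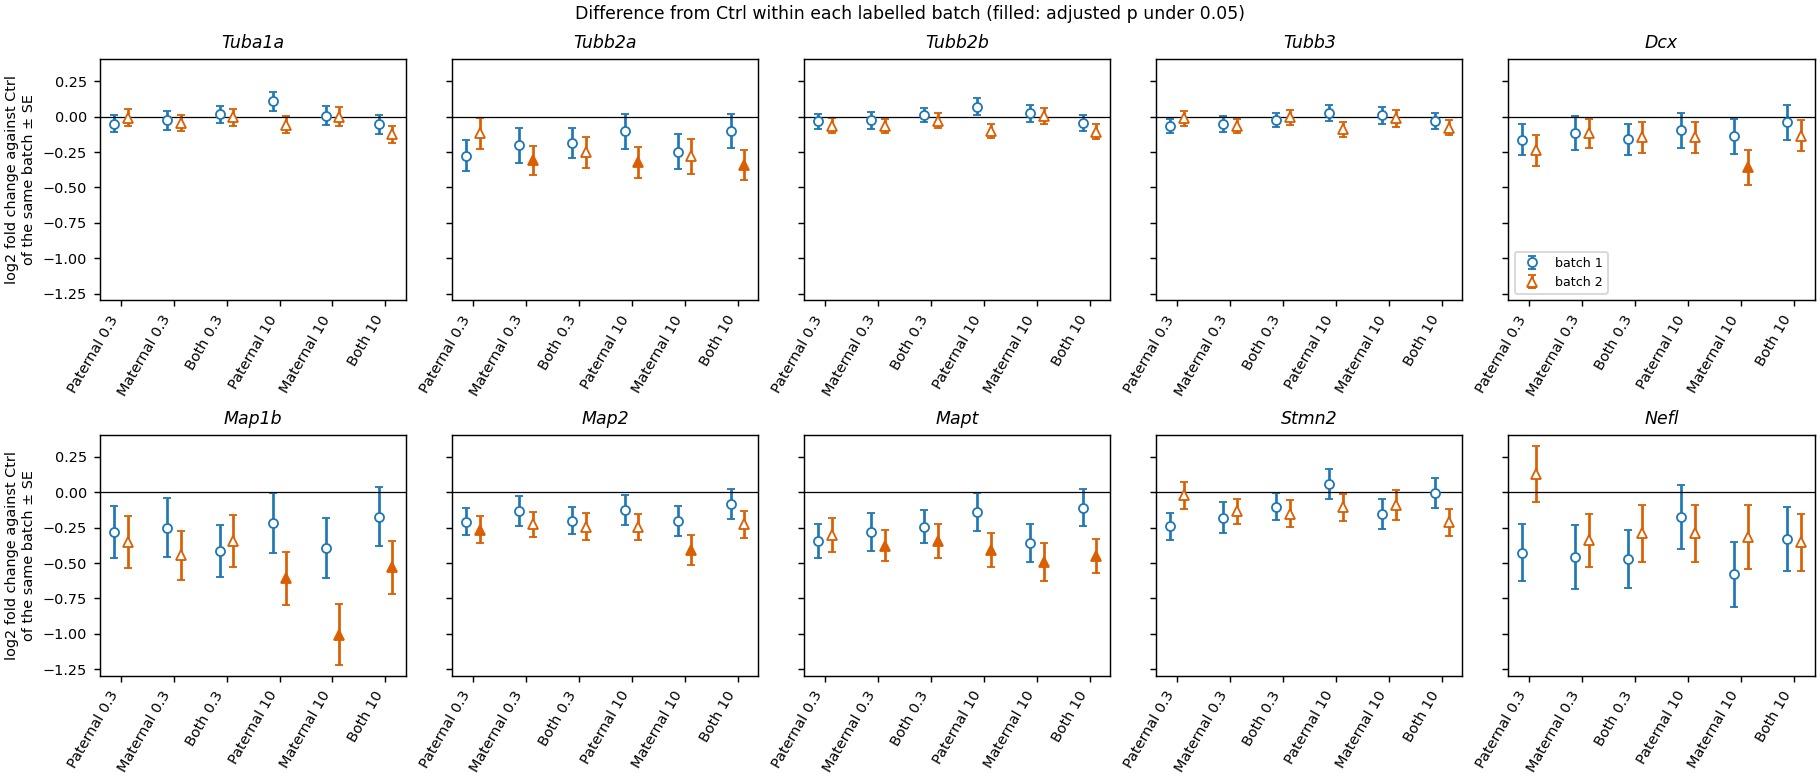
Log2 fold change of each member against the Ctrl libraries of the same batch, ± 1 standard error, with batch 1 as circles and batch 2 as triangles; filled points have an adjusted p under 0.05. All filled points belong to batch 2, and Mapt and Map1b lie below zero in both batches in every group.

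Transcript length moved with the differences. With all genes split into 4 bins of equal size by transcript length, the median log2 fold change in Maternal_10Cyp was 0.15 in the shortest bin (204 to 1968 bases), 0.035 (1969 to 3063 bases), -0.043 (3064 to 4563 bases) and -0.18 in the longest (4564 to 123179 bases). The share called lower was 3.82%, 11.7%, 21.6% and 44.6% from shortest to longest. Tuba1a, Tubb3 and Tubb2a lie in the shortest bin, Tubb2b, Stmn2 and Mapt in the second, Nefl in the third, and Map2, Dcx and Map1b in the longest, by the transcript with the longest coding sequence. For Mapt this transcript is 2250 bases long, of which 2247 are coding, whereas its merged exons span 7531 bases. The bin of Mapt and its value under length offsets therefore rest on a transcript that is nearly all coding. Another length for Mapt was not tested. Under offsets that remove a smooth dependence on GC content and length in each library, Mapt (-0.49, adjusted p = 0.000545), Tubb2a (-0.40, 0.000944), Nefl (-0.42, 0.0377), Map1b (-0.34, 0.00218) and Map2 (-0.13, 0.01) were still lower and called in Maternal_10Cyp. Map1b and Map2 had been at -0.69 and -0.30 without the offsets. Dcx moved to 0.03 (0.591), and Tuba1a (-0.11, 0.0266) and Tubb3 (-0.10, 0.0365) were then called. With these offsets 33.7% of all genes were called in this comparison.

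**Figure D4:**
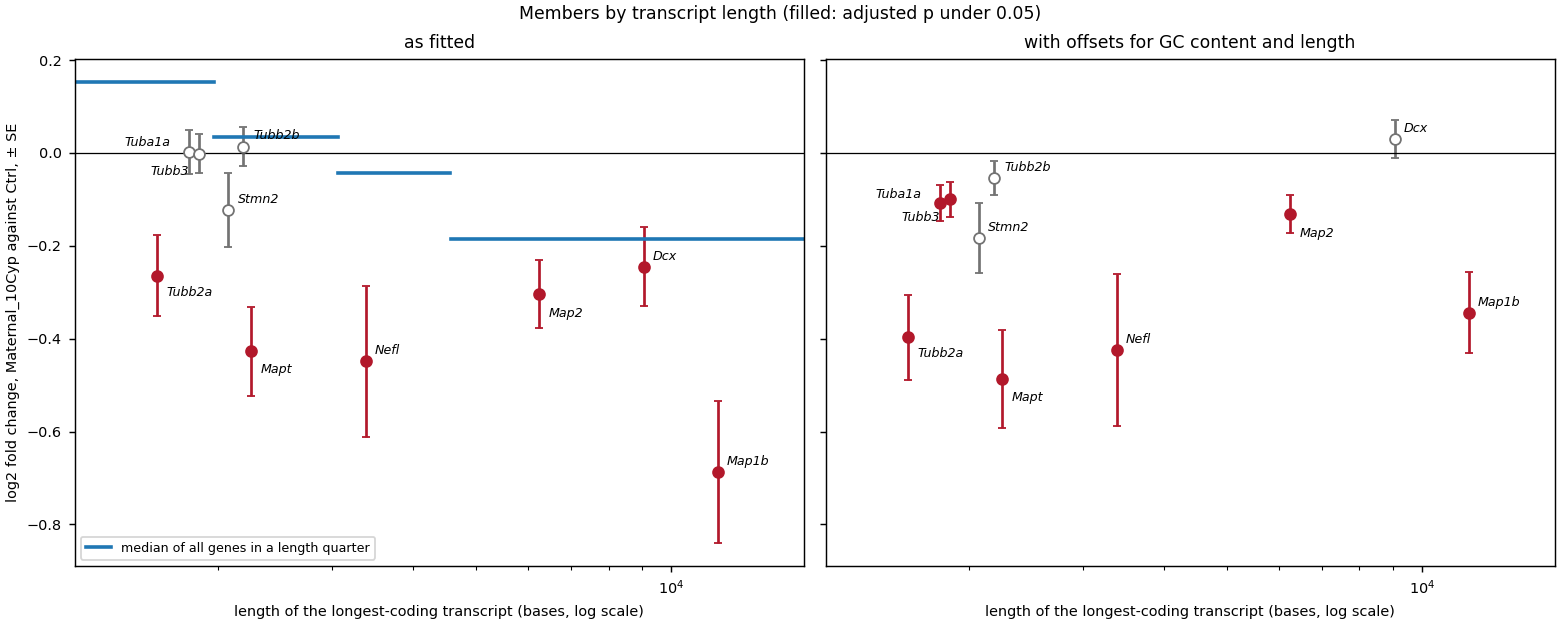
Log2 fold change of each member in Maternal_10Cyp against Ctrl, ± 1 standard error, by the length of its transcript with the longest coding sequence (log axis), as fitted (left) and with offsets for GC content and length (right); filled points have an adjusted p under 0.05 and horizontal lines are the medians of all genes in each of 4 bins of length. Map1b moves from -0.69 in the left panel to -0.34 in the right, and Dcx from -0.25 to 0.03.

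Markers of other cell types and stages differed between the same groups. All 9 intermediate progenitor markers were called higher in Paternal_0.3Cyp, Maternal_0.3Cyp and Maternal_10Cyp, and 7 in Both_0.3Cyp, 5 in Paternal_10Cyp and 2 in Both_10Cyp. Of all genes, 15.4% were called higher in Paternal_0.3Cyp, 10.9% in Maternal_0.3Cyp, 10.5% in Both_0.3Cyp, 10.7% in Paternal_10Cyp, 20.4% in Maternal_10Cyp and 2.34% in Both_10Cyp. The summed level of the 9 ran from 667 to 837 CPM in Maternal_10Cyp, against 294 to 757 CPM in Ctrl. All 8 markers of oligodendrocyte precursors and early astrocytes were called lower in Maternal_10Cyp, where their sum ran from 142 to 163 CPM, against 141 to 296 CPM in Ctrl. Of all genes, 20.4% were called lower in Maternal_10Cyp. In the other groups 5 of these 8 were called lower in Paternal_0.3Cyp (12.2% of all genes called lower), 6 in Maternal_0.3Cyp (12.8%), 6 in Both_0.3Cyp (11.8%), 4 in Paternal_10Cyp (10.8%) and 1 in Both_10Cyp (1.58%). Of 12 radial glia markers 6 were called higher and 3 lower in Maternal_10Cyp, where their sum ran from 1885 to 2254 CPM, against 1719 to 2128 CPM in Ctrl. The 3 of 12 called lower are near the 20.4% of all genes called lower. Of 9 diencephalon markers 6 were called higher in Paternal_0.3Cyp, where the sum ran from 19.4 to 479 CPM, against 20.8 to 177 CPM in Ctrl, and none was called in the other groups. Dorsal forebrain and newborn excitatory neuron markers summed to 3460 to 3996 CPM in Maternal_10Cyp (4 of 13 called higher, 1 lower), against 2429 to 4261 CPM in Ctrl. No marker of these lists was at 0 in any group.

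The log2 ratio of embryonic to adult globin counts, which falls as blood matures, had medians of -11.01 in Paternal_0.3Cyp, -10.7 in Maternal_0.3Cyp, -10.9 in Both_0.3Cyp, -11.4 in Paternal_10Cyp, -10.3 in Maternal_10Cyp and -11.4 in Both_10Cyp, against -12.8 in Ctrl. Embryonic globins were near the floor, with summed medians of 0.74 to 1.38 CPM in the exposed groups and 0.18 CPM in Ctrl. Their lowest sum was 0 in Ctrl and in Both_10Cyp. The ratio therefore rests on few counts, and where these are 0 on the pseudocount of 0.5. With this ratio as a covariate, no member was called in Paternal_0.3Cyp, Maternal_0.3Cyp, Both_0.3Cyp or Both_10Cyp, 2 were in Paternal_10Cyp (Map1b and Mapt) and 3 in Maternal_10Cyp (Map1b at -0.66, Map2 at -0.26 and Mapt at -0.22). The calls over all genes fell too, to 44 in Paternal_0.3Cyp, 170 in Maternal_0.3Cyp, 10 in Both_0.3Cyp, 2289 in Paternal_10Cyp, 4023 in Maternal_10Cyp and 132 in Both_10Cyp, against 3961, 3404, 3202, 3076, 5856 and 561 without the covariate. With 2 surrogate variables as further terms, no member was called in any group, and of all genes 0 were called in each of the 0.3 groups, 158 in Paternal_10Cyp, 448 in Maternal_10Cyp and 13 in Both_10Cyp. In that fit the sign turned for Tubb2a in Both_0.3Cyp (0.0068) and Maternal_10Cyp (0.050), and for Nefl in Maternal_0.3Cyp (0.044), Both_0.3Cyp (0.035) and Maternal_10Cyp (0.13). The part of cell composition and stage in the members' differences was otherwise not tested.

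Beyond the 10 genes, other microtubule genes were read from lists by role. Of 12 other microtubule-associated proteins tested, 9 were called lower in Maternal_10Cyp and none higher, beside 20.4% of all genes called lower and 20.4% called higher. Map4, a broadly expressed member, ran from 295 to 339 CPM in Maternal_10Cyp, against 327 to 471 CPM in Ctrl, a log2 fold change of -0.35 ± 0.07 (adjusted p = 0.000121). Map6, which keeps microtubules stable in the cold, differed by -0.48 ± 0.11 (0.000422) and Map9 by -0.45 ± 0.10 (0.000299). Map6 ran from 193 to 248 CPM in Maternal_10Cyp, against 245 to 426 CPM in Ctrl, so that the groups barely overlapped. In the other groups 7 of the 12 were called lower in Paternal_0.3Cyp (12.2% of all genes), 9 in Maternal_0.3Cyp (12.8%), 6 in Both_0.3Cyp (11.8%), 8 in Paternal_10Cyp (10.8%) and 3 in Both_10Cyp (1.58%).

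Of 13 proteins that bind microtubule ends, 10 were called lower in Maternal_10Cyp and none higher (of all genes, 20.4% each way), among them Camsap3, which binds minus ends (-0.34 ± 0.06, adjusted p = 8.67e-05), and Mapre2, of the plus-end EB family (-0.31 ± 0.07, 0.000705). Camsap3 ran from 95.7 to 112 CPM in Maternal_10Cyp, against 114 to 156 CPM in Ctrl, without overlap. Of 24 motor subunits 11 were called lower and 1 higher, with Kif1a, an axonal kinesin that carries synaptic vesicle precursors, at -0.54 ± 0.11 (0.000226). Dclk1, a doublecortin-like kinase, was at -0.42 ± 0.09 (0.000249), in a list of 7 doublecortin relatives and stathmins with 3 called lower and 1 higher. Of 14 partners of dynein in migration and kinases of microtubule proteins, 5 were called lower, such as Pafah1b1 (-0.16 ± 0.04, 0.0016), whose human loss causes lissencephaly, and 3 higher, such as Nde1 (0.51 ± 0.13, 0.00138), which is used by dividing progenitors. The 3 of 14 called higher are close to the 20.4% of all genes called higher.

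Of 14 genes of tubulin folding, chaperonin subunits and cofactors, 11 were called higher in Maternal_10Cyp, where 20.4% of all genes were called higher, and none lower, with Tbca at 0.32 ± 0.08 (adjusted p = 0.00212), Tbcc at 0.30 ± 0.08 (0.00381) and Cct8 at 0.15 ± 0.05 (0.011). Tbca ran from 75.8 to 90.4 CPM in Maternal_10Cyp, against 54.2 to 82.1 CPM in Ctrl. In the other groups 8 of the 14 were called higher in Paternal_0.3Cyp (15.4% of all genes), 2 in Maternal_0.3Cyp (10.9%), 1 in Both_0.3Cyp (10.5%), 8 in Paternal_10Cyp (10.7%) and none in Both_10Cyp (2.34%). Of 7 severing proteins 4 were called higher and none lower, with Fignl1 at 0.49 ± 0.13 (0.00219). Of 11 other tubulins 3 were called higher, with Tuba1c at 0.58 ± 0.15 (0.00176) and the centrosomal Tubg1 at 0.24 ± 0.06 (0.00139), and 1 lower, the neuronal Tubb4a at -0.14 ± 0.05 (0.0223), which is near the share of all genes called higher.

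Enzymes that modify tubulin had 5 of 20 called lower and 1 higher in Maternal_10Cyp, near the 20.4% of all genes called lower, with Agtpbp1, which trims glutamates from tubulin tails, at -0.38 ± 0.09 (adjusted p = 0.00054). Among 6 other intermediate filament genes, Vim, found in radial glia, was higher (0.36 ± 0.11, 0.00823) and Ina, an early neuronal filament, was lower (-0.19 ± 0.06, 0.01), with 2 of the 6 called higher and 1 lower. With the GC and length offsets the Maternal_10Cyp counts were 7 lower and 1 higher for the other microtubule-associated proteins, 6 lower and 1 higher for the end-binding proteins, 8 lower and 5 higher for the motors, and 5 higher for folding. Under these offsets 33.7% of all genes were called in Maternal_10Cyp, in both directions together. That share is not split by direction here, so the counts each way have no share of their own beside them. With 2 surrogate variables, which left 448 of all genes called in Maternal_10Cyp, 5 of the 13 end-binding proteins and 1 of the 12 other microtubule-associated proteins were called lower, 1 of the 20 modifying enzymes was called higher, and none of the other lists of microtubule genes had a call.

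Dose and exposed parent were compared without Ctrl libraries, and no member passed in edgeR. For dose 10 against 0.3, 0 members were called for fathers (0.0628% of all genes), 0 for mothers (0%) and 0 for both parents (0.00697%), and 0 by DESeq2 and by limma. At an unadjusted p under 0.05 there were 0 members for fathers, 1 for mothers and 1 for both parents. Of all 14339 genes, 1250, 1291 and 414 were under that cut in the same order. The largest difference, Map1b in Maternal_10Cyp against Maternal_0.3Cyp, was -0.34 ± 0.15 with an interval of -0.63 to -0.04 (adjusted p = 0.537). Maternal against paternal exposure called 0 members at dose 0.3 (0.00697% of all genes) and 0 at dose 10 (0%), with 0 at an unadjusted p under 0.05 and 0 by DESeq2 and limma. For Map1b at dose 10 the difference was -0.25 ± 0.16 with an interval of -0.56 to 0.05, which spans both no difference and a sizeable one. Male against female embryos differed in 0 members (0.0907% of all genes, and 0 members by DESeq2 and limma), with Stmn2 at 0.08 the only one at an unadjusted p under 0.05. Of all genes, 586 were under that cut. A joint test of whether the exposure differences varied with sex called 0 members and 0% of all genes in edgeR. It had 0 members at an unadjusted p under 0.05, and DESeq2 and limma called 0. For Paternal_0.3Cyp alone, the sex contrast had 3 members at an unadjusted p under 0.05, none called (lowest adjusted p = 0.187). Over the members its log2 values ran from -0.27 to 0.80. Of all genes, 2389 had an unadjusted p under 0.05 there and 1 was called. Each other group had 0 such members.

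At dose 10 the differences with both parents exposed were smaller than the sum of those with either parent for 3 members. Non-additivity, the Both difference minus the Maternal and the Paternal ones, was above 0 for Map1b (0.75 ± 0.21, adjusted p = 0.0084), Mapt (0.42 ± 0.13, 0.0168) and Map2 (0.33 ± 0.10, 0.0139), beside 14% of all genes called above 0. The same Ctrl libraries enter each of these differences. A shift of Ctrl alone would therefore also put the value above 0 for genes lower in every exposed group. Such a shift and an interaction of the parents cannot be told apart here. In CPM, the Map1b medians were 1388 in Both_10Cyp, 1245 in Maternal_10Cyp and 1367 in Paternal_10Cyp, against 2051 in Ctrl, so the median with both parents exposed lay between that of exposed mothers and that of Ctrl. Under the GC and length offsets the value was 0.32 for Map1b (0.0557), 0.11 for Map2 (0.146) and 0.47 for Mapt (0.0234). Tubb2a was then called as well, at 0.40 (0.0257), with 2433 of all genes called. The fit without libraries high in embryonic globins left out Both_10Cyp replicates 7 and 8, among others. It called Map1b (0.85, adjusted p = 0.00165), Map2 (0.38, 0.00235), Mapt (0.55, 1.4e-05) and Tubb2a (0.37, 0.00201), with 5651 of all genes. With the globin ratio as a covariate it was 0.72 for Map1b (adjusted p = 0.0217), 0.29 for Map2 (0.0428) and 0.19 for Mapt (0.142), so that the call for Mapt was lost. With 2 surrogate variables no member was called, and 322 of all genes were. At dose 0.3, 0 members were called by edgeR (0% of all genes), 0 by DESeq2 (410 of all genes) and 2 by limma (773 of all genes). In edgeR 3 of the 10 members had an unadjusted p under 0.05, as did 3659 of all 14339 genes, and the lowest adjusted p of a member was 0.0869.

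Within groups, the 10 genes did not vary as 1 set. Over the 76 libraries, after group, batch and sex were removed, the residual levels formed blocks: Tuba1a, Tubb2b and Tubb3 were correlated with Pearson's r of 0.90 to 0.93, and Dcx, Map1b and Map2 with r of 0.80 to 0.91. Tubb2a ran with Stmn2 (r = 0.91), Nefl (0.84) and Mapt (0.82), and less with its near-identical neighbour Tubb2b (0.38). Tuba1a and Dcx ran in opposite directions (-0.40). Mapt followed the mean of the other members most closely (0.88) and Dcx least (0.13). These are descriptions over libraries that share depth, batch and tissue composition, and reads shared between near-identical genes enter the tubulin values.

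**Figure D5:**
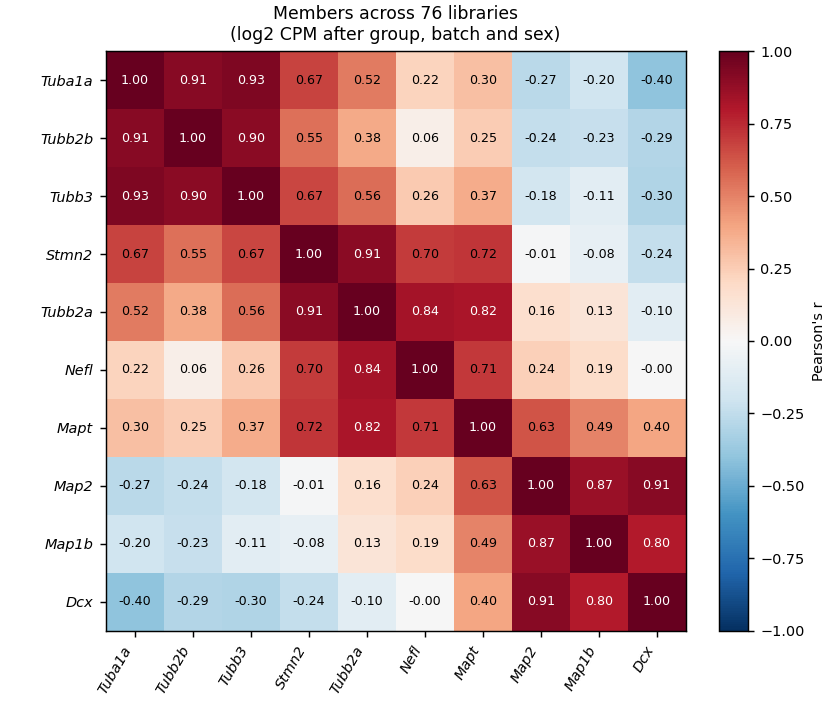
Pearson's r between members over the 76 libraries, from log2 CPM after group, batch and sex were removed. The tubulins Tuba1a, Tubb2b and Tubb3 form a block at 0.90 to 0.93, and Dcx, Map1b and Map2 form another at 0.80 to 0.91, with negative values between the blocks.

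Outside the 10 genes, those whose residual level was most like the mean of the members over the 76 libraries were Prkar1b (r = 0.92), a regulatory subunit of protein kinase A, Kifap3 (0.89), the adaptor of the kinesin-2 motor, Ywhag (0.89), a 14-3-3 protein, Ptprr (0.89), a tyrosine phosphatase, and Crmp1 (0.88), a collapsin response mediator that binds tubulin. The genes most opposed, chosen after their values were seen, were Yap1 (-0.86), a coactivator of the Hippo pathway, Ajuba (-0.85), Tcf7l1 (-0.83), Cdk2 (-0.83) and Plk4 (-0.83), of which Cdk2 and Plk4 act in the cell cycle. In Maternal_10Cyp, Crmp1 was at -0.22 (adjusted p = 0.00054) and Kifap3 at -0.31 (0.000418), while Cdk2 was at 0.48 (0.00158), Plk4 at 0.44 (0.000809) and Yap1 at 0.29 (0.043), and Tcf7l1 (0.41, 0.0545) and Ajuba (0.34, 0.0558) were not called.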

How the data were processed

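For 76 libraries, the deposited table gives expected counts per gene. Per the submitters' processing notes the authors used Trim Galore 0.5.0, Salmon 1.10.1 and the mm10 build. All values are whole numbers, and the rounding and the step to genes are not given in the sources used here. Gene IDs were matched to GENCODE M21 (GRCm38), which supplied symbols for 14810 IDs, positions and coding sequences. Salmon divides reads that fit several transcripts by estimate, which can shift counts between near-identical tubulins.

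The main test was edgeR 4.0.16 (R 4.3.3). The filter, filterByExpr by group, kept 14339 genes and removed 484. After TMM scaling, 1 robust quasi-likelihood model of the 76 libraries held terms for group, batch and sex. P-values are 2-sided, adjusted by Benjamini-Hochberg over all genes of a comparison, and called at 0.05. Values after ± are standard errors unless SD is written. Within-batch values come from a model with its own mean for every group in every batch. Shares, correlations and lists were described, not tested. The members and the gene lists were chosen with earlier results of these data known. All 10 members were described, and of each pathway list the 3 genes of lowest p in the joint test could be named. The genes most like the members were the 5 with the highest correlation.

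The settings compared were another scaling (DESeq2 size factors), no filter, another test (DESeq2 1.42.0, or limma 3.58.1 with voom and quality weights), fewer libraries (only the groups compared, batch 1, batch 2, without libraries that stood apart, each library left out in turn), and other terms (no batch, a replicate block, 2 surrogate variables from sva 3.50.0, the globin ratio with a pseudocount of 0.5). Others were GC and length offsets and summed paralogs, of which the sum of Tuba1a and Tuba1b was added after seeing the data. Among 2850 pairs of libraries none was identical (smallest chi-square per gene 3.10). The methods were tested on simulated data. A few marker, list and sequence items are not reported here.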

Additional observations from a re-analysis of the deposited data

Results flagged for a closer look

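In the groups of 8 to 10 libraries, each member was checked for a library far from the others of its group, which gives 30 checks, and chance flags about 1 in 20 groups. Replicate 1 of Maternal_10Cyp stood above the other 7 libraries of its group for 3 of the 10 members: Tuba1a at 16280 CPM (next 14671.5 CPM), Tubb2b at 7546 CPM (next 6568 CPM) and Tubb3 at 3380 CPM (next 3085 CPM). The same library had the lowest Dcx, Map1b, Map2, Mapt and Nefl of the group, at 1165, 929.9, 882, 1404 and 69.0 CPM. Replicate 4 of Paternal_10Cyp stood above the others of its group for Tubb2a, at 1334 CPM (next 1092 CPM), and also had the highest Mapt, Stmn2 and Nefl there.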

How the results depend on the processing

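The members called depended on the terms and libraries of the fit. Over all settings other than single libraries left out, values for the 24 called differences kept direction and call in 259 cases, kept the direction only in 115 and changed sign in 6. Values for the differences not called stayed so with the same sign in 480 cases, became called in 29 and changed sign in 53. With the globin ratio as a covariate the members called numbered 0 in Paternal_0.3Cyp, 0 in Maternal_0.3Cyp, 0 in Both_0.3Cyp, 2 in Paternal_10Cyp, 3 in Maternal_10Cyp, 0 in Both_10Cyp and 0 in the joint test. With 2 surrogate variables, and with batch 1 alone, 0 were called in each of the 6 groups, the joint test and non-additivity at dose 10. Calls over all genes fell as well: with 2 surrogate variables to between 0 and 448 in the groups, 43 in the joint test and 322 for non-additivity at dose 10, with batch 1 alone to between 0 and 465 in the groups, 0 in the joint test and 494 for non-additivity at dose 10, and with the globin ratio to between 10 and 4023 in the groups and 578 in the joint test. With batch 2 alone there were 0 in Paternal_0.3Cyp, 2 in Maternal_0.3Cyp, 1 in Both_0.3Cyp, 2 in Paternal_10Cyp, 3 in Maternal_10Cyp, 2 in Both_10Cyp, 1 in the joint test and 1 for non-additivity at dose 10. GC and length offsets gave 6 in Paternal_0.3Cyp, 3 in Both_0.3Cyp, 2 in Paternal_10Cyp and 2 in Both_10Cyp. A fit of only the groups compared gave 0 in Paternal_0.3Cyp and 0 in Both_10Cyp. Without the batch term 3 were called in Maternal_0.3Cyp, 2 in Paternal_10Cyp and 0 in Both_10Cyp. Without the libraries high in diencephalon markers 3 were called in Maternal_0.3Cyp, 2 in Both_0.3Cyp, 0 in Paternal_10Cyp and 0 in Both_10Cyp. Without those high in embryonic globins 0 were called in Both_10Cyp and 5 in the joint test. Limma called 2 in Both_10Cyp (952 of all genes), 7 in the joint test (5727), 2 for non-additivity at dose 0.3 (773) and 6 at dose 10 (6124). DESeq2 called 2 in Both_10Cyp (1085 of all genes). In edgeR the calls over all genes were 561, 3106, 0 and 3904 in these 4 comparisons. For batch 2 alone, the offsets and the fits with groups, libraries or the batch term left out, calls over all genes are not given here. Their counts therefore cannot be read as changes of the members alone. The cause of the changes in calls was not tested, except that single batches and fewer groups hold fewer libraries.

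With each library left out in turn, the members called ranged from 2 to 6 in Paternal_0.3Cyp, 2 to 5 in Maternal_0.3Cyp, 2 to 5 in Both_0.3Cyp, 0 to 4 in Paternal_10Cyp, 5 to 6 in Maternal_10Cyp, 0 to 2 in Both_10Cyp and 1 to 5 in the joint test. In Paternal_0.3Cyp 6 were called without its replicate 9. In Maternal_0.3Cyp 2 were called without Ctrl replicate 3, 7 or 8 or its own 2 or 5, and 3 without Ctrl replicate 10 or 12 or its own 1, 6, 7 or 8. In Both_0.3Cyp 2 were called without Ctrl replicate 3, 7, 8 or 12 or its own 6, 7 or 8, and 3 without its own 3, 4 or 5. In Paternal_10Cyp 0 were called without its replicate 6, 1 without its replicate 5 or Ctrl replicate 7, and 2 without Ctrl replicate 3, 8, 9 or 12 or its own 1, 2 or 8. In Both_10Cyp 0 were called without its replicate 1, 2, 7, 8 or 9 or Ctrl replicate 3, 4, 7, 8, 9, 10, 11 or 12, and 2 without its replicate 3 or 4 or Ctrl replicate 5 or 6. The joint test called 1 member without Ctrl replicate 7 and 5 without Paternal_0.3Cyp replicate 4 or 9.

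Log2 fold changes that changed sign with the setting were mostly small. With 2 surrogate variables Tubb2a was at 0.034 in Paternal_0.3Cyp, 0.0068 in Both_0.3Cyp and 0.050 in Maternal_10Cyp, and Tubb3 at 0.0094 in Both_0.3Cyp and 0.019 in Maternal_10Cyp. Dcx was at 0.010 in Maternal_0.3Cyp and Stmn2 at 0.043 in Paternal_0.3Cyp, 0.032 in Maternal_0.3Cyp, 0.034 in Both_0.3Cyp, 0.11 in Paternal_10Cyp and 0.090 in Maternal_10Cyp. Nefl was at 0.22 in Paternal_0.3Cyp, 0.044 in Maternal_0.3Cyp, 0.035 in Both_0.3Cyp, 0.14 in Paternal_10Cyp and 0.13 in Maternal_10Cyp. With GC and length offsets Tuba1a was at -0.063 in Both_0.3Cyp, -0.053 in Paternal_10Cyp and -0.11 in Maternal_10Cyp, and Tubb2b at -0.054 in Maternal_10Cyp. Dcx was at 0.027 in Maternal_0.3Cyp, 0.028 in Both_0.3Cyp, 0.050 in Paternal_10Cyp, 0.030 in Maternal_10Cyp and 0.035 in Both_10Cyp. With the globin ratio as a covariate Tuba1a was at 0.022 in Paternal_0.3Cyp and 0.0075 in Maternal_0.3Cyp, and Tubb2b at 0.029 in Both_0.3Cyp. Tubb3 was at 0.017 in Paternal_0.3Cyp, 0.036 in Both_0.3Cyp and 0.057 in Maternal_10Cyp and Stmn2 at 0.028 in Paternal_0.3Cyp, 0.020 in Both_0.3Cyp, 0.039 in Paternal_10Cyp and 0.048 in Maternal_10Cyp. Nefl was at 0.11 in Paternal_0.3Cyp. In batch 1 alone Tubb2b was at 0.023 in Both_0.3Cyp and 0.084 in Paternal_10Cyp, and Tubb3 at 0.035 in Paternal_10Cyp and 0.016 in Maternal_10Cyp. Stmn2 was at 0.066 in Paternal_10Cyp and 0.0028 in Both_10Cyp. In batch 2 alone Tuba1a was at -0.0062 in Both_0.3Cyp, -0.060 in Paternal_10Cyp and -0.0065 in Maternal_10Cyp, and Tubb2b at -0.0030 in Maternal_10Cyp. Nefl was at 0.13 in Paternal_0.3Cyp. In limma Tuba1a was at -0.0076 in Both_0.3Cyp, -0.029 in Paternal_10Cyp and -0.017 in Maternal_10Cyp, and Tubb2b at -0.0010 in Maternal_10Cyp. Without the libraries high in diencephalon markers Tuba1a was at -0.0026 in Paternal_10Cyp and -0.0050 in Maternal_10Cyp. Without those high in embryonic globins Tuba1a was at 0.0033 in Paternal_0.3Cyp and -3.6e-05 in Maternal_10Cyp. Without the filter Tubb3 was at 0.0012 in Maternal_10Cyp. With each library left out in turn, Tuba1a ranged from -0.0051 to 0.021 in Both_0.3Cyp, -0.0090 to 0.039 in Paternal_10Cyp and -0.013 to 0.020 in Maternal_10Cyp, Tubb2b ranged from -0.017 to 0.011 in Both_0.3Cyp and -0.0095 to 0.032 in Maternal_10Cyp, Tubb3 ranged from -0.019 to 0.012 in Maternal_10Cyp and Stmn2 ranged from -0.063 to 0.00057 in Paternal_10Cyp.

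Replicate numbers did not pair the libraries: the residuals of 210 same-numbered pairs had a median correlation of 0.0086, against -0.021 for 1058 other pairs. With the replicate block 4 members were called in Paternal_0.3Cyp, 5 in Maternal_0.3Cyp, 5 in Both_0.3Cyp, 3 in Paternal_10Cyp, 5 in Maternal_10Cyp, 1 in Both_10Cyp, 4 in the joint test, 3 for non-additivity at dose 10 and 0 in the other contrasts. Calls over all genes under the block are not given here, so these counts cannot be read as changes of the members alone. Under the block Tuba1a was at -0.018 in Paternal_10Cyp and -0.031 in Maternal_10Cyp, and Tubb2b at -0.019 in Maternal_10Cyp. A fit of only the groups compared was not run for the joint and interaction tests or for sex, and batch by exposure has no value in 1 batch. Depth did not limit these abundant genes, of which the least abundant had at least 883 counts in every library. The part of the greater depth of Both_10Cyp in its values was not tested.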
